A study of Arabidopsis thaliana with 24 samples.

Results

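The transcripts described here are those whose signal was lower without iron in both roots and leaves of wild-type Arabidopsis thaliana. Members were chosen by the signal changes of wild type alone: a probe set was a member when its mean in wild type (Col) on iron-deficient medium (-Fe) lay at least 0.5 log2 units below its mean on iron-sufficient medium (+Fe) in roots and also in leaves. Of 17810 probe sets on the Affymetrix ATH1 array that are no controls, 66 passed these thresholds. AT3G49160, SAPX, PSAN, AT3G43670 and the plastid-encoded psbH were left out, which leaves 61 members. A single gene was named for 22 members, and 39 had no gene name in the annotation used, so these are given by their probe set number.

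The study compared Col with a double mutant in the same ecotype, rglg1 rglg2, which is called the mutant here. RGLG1 and RGLG2 encode RING-domain ubiquitin ligases. Plants grew at 21 °C in continuous light, were transferred when 10 days old, either to 40 µM FeEDTA (+Fe) or to an iron chelator of the ferrozine type at 100 µM (-Fe), and were harvested 3 days later, when 13 days old. The 8 groups were Col and mutant roots on +Fe and -Fe and Col and mutant leaves on +Fe and -Fe, with 3 arrays each that the labels call biological replicates. No source used here gives the mutant's alleles or the number of plants behind an array. Signals are log2 values centred on the median of the 24 arrays for each probe set, so a value is relative to the other arrays and levels of different genes cannot be compared.

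Iron is a cofactor in heme, in iron-sulfur clusters and at mononuclear sites of many enzymes, and in leaves most of it is held in chloroplasts, where photosystem I, the cytochrome b6f complex and ferredoxin need it. Plants short of iron raise uptake genes and lower transcripts of proteins that bind or store iron. Rubredoxins hold a single iron atom bound by cysteines, and class III peroxidases carry heme.

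The Col arrays of both tissues chose the members, so their Col values describe the choice and are not tested. In Col roots the members' changes ran from -2.02 to -0.51 with a median of -0.70. In Col leaves they ran from -4.21 to -0.50 with a median of -0.80. The members nearest to the threshold were 256015_at, at -0.63 in roots and -0.50 in leaves, and 256469_at, at -0.51 and -1.52. Just outside lay 263350_at, at -0.496 and -0.509, and 251733_at, at -0.721 and -0.496. The largest Col falls among named members were those of AT2G36885 (-0.99 in roots and -3.10 in leaves), AT5G59400 (-1.12 and -2.27) and AT1G68650 (-0.96 and -2.39). Among unnamed members they were 251109_at (-2.02 and -4.02) and 254098_at (-1.52 and -4.21). Unnamed members are singled out in the text after their values were seen.

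The mutant arrays were not used in the choice, and they carry the tests. Each test is limma's moderated test of -Fe against +Fe in the mutant, two-sided, with Benjamini-Hochberg adjustment over all 17810 probe sets, and "fell" is used at an adjusted p under 0.05. Errors beside a log2 change are standard errors, with 3 arrays per group.

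Photosynthesis markers lay higher in leaves than in roots for 9 of 9 probe sets, and root markers higher in roots for 2 of 2, on all mutant +Fe arrays, as the tissue labels say. Replicate 3 of the mutant leaves stands apart from replicates 1 and 2: Pearson's r of its profile with theirs was 0.852 to 0.905, whereas the other replicate pairs of all groups gave 0.933 to 0.984. The mean 5′ minus 3′ difference of 6 control probe set pairs was 0.01 ± 0.14 (SD, n = 3) in mutant roots on +Fe and 0.21 ± 0.02 on -Fe. In mutant leaves it was 0.01 ± 0.10 on +Fe and -0.13 ± 0.07 on -Fe. Its part in the results below was not tested.

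In mutant roots the members were again lower without iron. The signal was lower on -Fe in 57 of 61 members, against 50.1% of all probe sets, and the median change of the members was -0.58, against 0.00 over all. With limma, 44 members fell, which is 72.1% of them, where 4.24% of all probe sets fell, and 0 rose. All 3 -Fe arrays lay below all 3 +Fe arrays in 49 members (80.3%), against 14.9% of all probe sets. At an unadjusted p under 0.05, 49 members were lower, against 12.3% of all probe sets, and 0 higher.

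In mutant leaves the members were lower as well, but fewer single members passed the test. The signal was lower on -Fe in 58 of 61 members, against 57.6% of all probe sets, with a median of -0.53 against -0.03 over all. With limma, 19 members fell (31.1%), against 0.27% of all probe sets, and 0 rose. The arrays of the media did not overlap in 28 members (45.9%), against 7.43% of all. At an unadjusted p under 0.05, 39 members were lower, against 5.5% of all, and 0 higher. In the fit on the 6 mutant leaf arrays alone, 10 members fell (16.4%, against 0.101% of all), and with array weights 39 did (63.9%, against 4.62% of all). Leaf and root samples are bulk tissue, so fewer cells of a type and less RNA per cell cannot be told apart.

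In both tissues of the mutant, 16 members fell (26.2%), against 0.146% of all probe sets. This count was 9 with only the mutant arrays in the fit (14.8%, against 0.073% of all) and 36 with array weights (59.0%, against 1.17%). Another 28 members fell in roots alone, 3 in leaves alone, and 14 passed in neither. Over all 17810 probe sets these counts were 729, 22 and 17033. A call in 1 tissue alone is no test of a difference between tissues, and that test is given below. Of the 26 probe sets of the whole table that fell in both mutant tissues, 16 were members (61.5%), 2 had been left out by name and 8 were others. A change of -0.5 or less was reached in mutant roots by 38 members, against 3.02% of all probe sets, in mutant leaves by 32, against 2.09%, and in both by 23, against 0.314%. The media were free of overlap in both mutant tissues for 26 members, against 1.34%, and 54 were lower in both, against 26.9%.

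**Figure D1:**
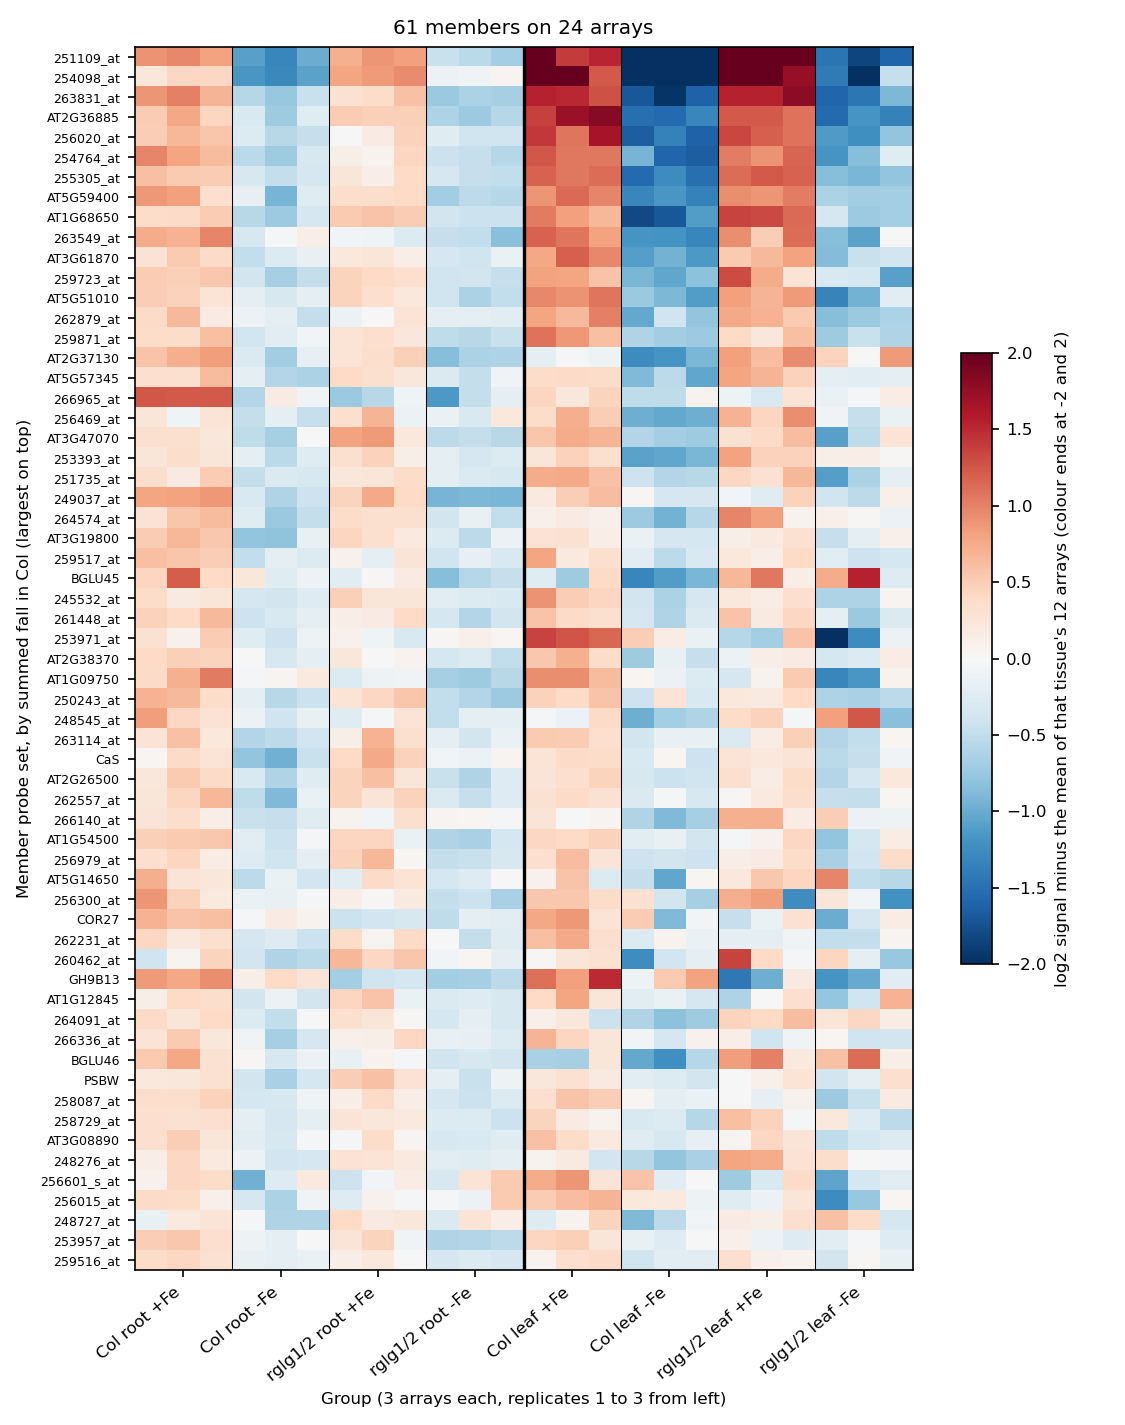
Heat map of the 61 members (rows, ordered by their summed fall in Col, largest on top) on the 24 arrays (columns, 3 per group), coloured by log2 signal minus the mean of the 12 arrays of that tissue, red higher and blue lower. The upper rows are red on +Fe and blue on -Fe in leaves of both genotypes, and further down the mutant leaf columns are less even, with replicate 3 on -Fe often paler than replicates 1 and 2.

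By array, the median signal over the members was -0.07, -0.05 and -0.03 in mutant roots on +Fe and -0.78, -0.63 and -0.66 on -Fe. In mutant leaves it was 0.95, 1.23 and 1.29 on +Fe and -0.04, 0.09 and 0.12 on -Fe. The media did not overlap in either tissue, and in Col they did not either, with 0.08 to 0.16 against -0.90 to -0.71 in roots and 0.93 to 1.33 against -0.23 to -0.12 in leaves. On -Fe, replicate 3 of the mutant leaves was the highest of its 3 arrays in 35 members (57.4%), against 28.9% of all probe sets. It lay nearer to the +Fe mean than to the mean of the other 2 in 29 members (47.5%), against 59.9% of all probe sets.

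AT2G36885 showed the largest leaf fall among the named members. Its values in mutant leaves were 0.19, 0.18 and 0.04 on +Fe and -2.59, -2.23 and -2.40 on -Fe, so that the media lay far apart. This was 5.83-fold lower on -Fe (log2 -2.54 ± 0.14, adjusted p = 9.13e-07 with limma). In mutant roots it read 0.72, 0.69 and 0.68 on +Fe and -0.41, -0.52 and -0.37 on -Fe, a fall of 2.18-fold (log2 -1.13 ± 0.12, adjusted p = 4.44e-05). The replicates of each medium stayed within a narrow band in both tissues.

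AT1G68650 belongs to a family of membrane proteins whose studied plant members carry manganese or calcium. Its values in mutant leaves were 0.32, 0.29 and 0.10 on +Fe and -1.36, -1.76 and -1.71 on -Fe. It fell 3.6-fold there (log2 -1.85 ± 0.18, adjusted p = 0.000201 with limma). In mutant roots it fell 1.92-fold (log2 -0.94 ± 0.10, adjusted p = 2.76e-05), from 0.92 to 0.99 on +Fe to between -0.02 and 0.05 on -Fe. The media did not overlap in either tissue of either genotype.

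Both rubredoxin-like genes among the named members were lower on -Fe in all 4 comparisons of the media. AT5G51010 read -0.58, -0.69 and -0.82 in mutant roots on +Fe and -1.43, -1.66 and -1.53 on -Fe, and fell 1.80-fold (log2 -0.84 ± 0.10, adjusted p = 8.8e-05 with limma). In mutant leaves it read 2.71, 2.56 and 2.73 on +Fe and 0.54, 0.94 and 1.65 on -Fe. The third -Fe array thus lay between the others and the +Fe arrays, and the gene fell 3.07-fold (log2 -1.62 ± 0.22, adjusted p = 0.00351; 0.104 with the 6 mutant leaf arrays alone). AT1G54500, the rubredoxin of the thylakoid that photosystem II needs to accumulate, fell 1.71-fold in mutant roots (log2 -0.77 ± 0.15, adjusted p = 0.00528). In mutant leaves its values were 1.61, 1.74 and 2.07 on +Fe and 0.87, 1.31 and 1.81 on -Fe. These overlapped through replicate 3, and the change of -0.48 ± 0.20 was not called (adjusted p = 0.546).

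AT5G59400 fell 1.95-fold in mutant roots (log2 -0.96 ± 0.18, adjusted p = 0.00434 with limma) and 3.06-fold in mutant leaves (log2 -1.61 ± 0.10, adjusted p = 2.88e-06). Its leaf values were 0.70, 0.66 and 0.81 on +Fe and -0.86, -0.91 and -0.90 on -Fe. AT3G61870 fell 2.34-fold in mutant leaves (log2 -1.22 ± 0.15, adjusted p = 0.00173; 0.0503 with the 6 mutant leaf arrays alone) and 1.40-fold in mutant roots (log2 -0.49 ± 0.11, adjusted p = 0.0132). AT5G57345 fell 1.79-fold in mutant leaves (log2 -0.84 ± 0.13, adjusted p = 0.0144; 0.0843 with those 6 arrays) and 1.51-fold in roots (log2 -0.59 ± 0.13, adjusted p = 0.0162). With AT2G36885, AT1G68650 and AT5G51010, these were the 6 named members that fell in both mutant tissues.

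**Figure D2:**
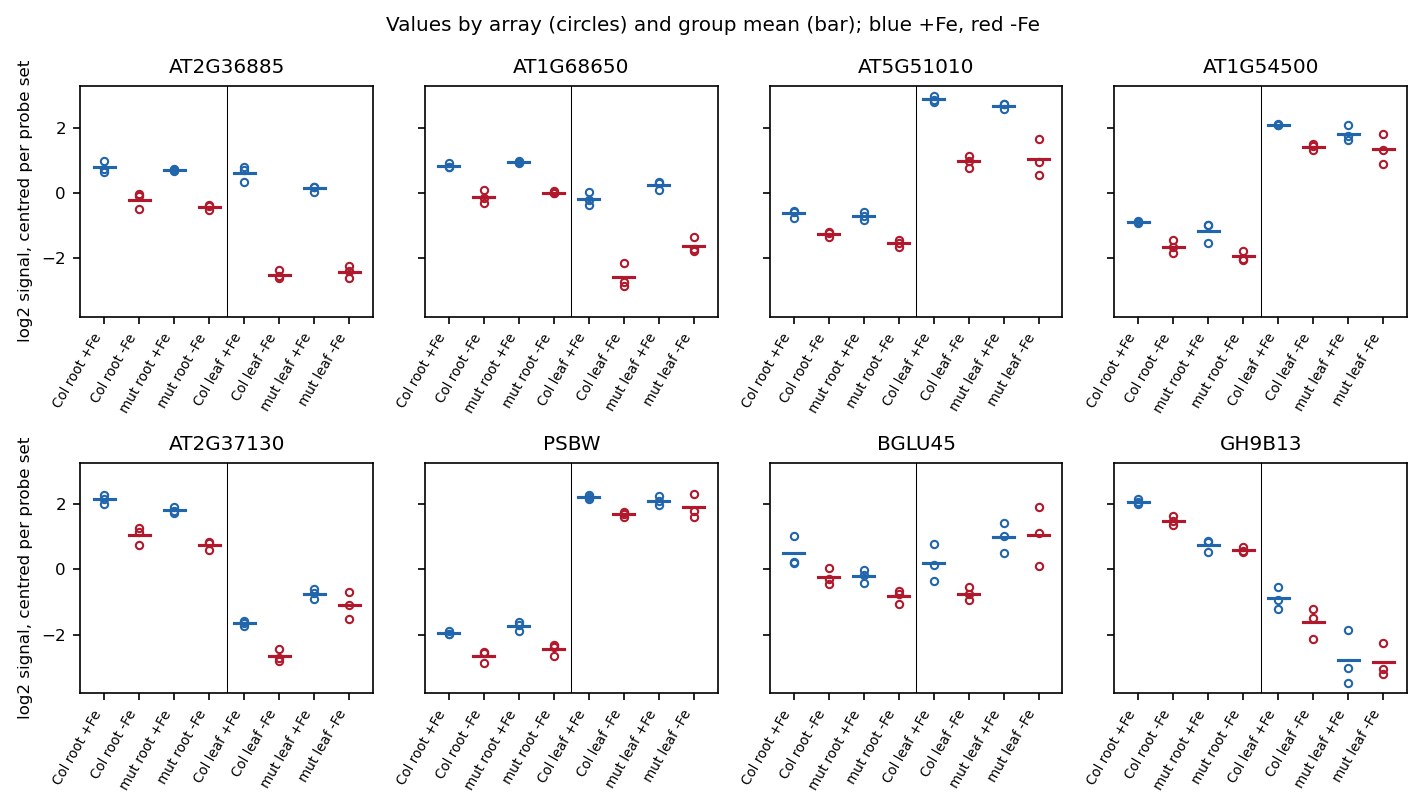
Log2 signal, centred per probe set, of 8 named members in the 8 groups (circles are the 3 arrays, bars their mean, blue +Fe, red -Fe; mut is rglg1 rglg2). AT2G36885, AT1G68650 and AT5G51010 separate by medium in all 4 pairs of groups, AT2G37130 and PSBW separate in roots and overlap in mutant leaves, and BGLU45 and GH9B13 show the medium in Col leaves with overlap in mutant leaves.

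Another 4 named members encode thylakoid proteins and were set side by side here after their values were seen; only PSBW stands in the photosynthesis list. PSBW, a small subunit of photosystem II, read -1.71, -1.61 and -1.90 on +Fe and -2.37, -2.64 and -2.30 on -Fe in mutant roots, and fell 1.63-fold (log2 -0.70 ± 0.12, adjusted p = 0.00187 with limma). AT2G26500, a PetM-type subunit of the cytochrome b6f complex, fell 1.82-fold there (log2 -0.86 ± 0.13, adjusted p = 0.000815). AT3G47070, the thylakoid phosphoprotein TSP9, fell 2.21-fold (log2 -1.14 ± 0.17, adjusted p = 0.000805), the largest root fall among the named members. CaS, a calcium-binding protein of the thylakoid membrane, fell 1.5-fold (log2 -0.58 ± 0.14, adjusted p = 0.0203).

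None of these 4 genes was called in mutant leaves with all arrays. PSBW read 1.97, 2.09 and 2.25 on +Fe and 1.61, 1.79 and 2.31 on -Fe, so replicate 3 on -Fe was the highest of all 6 arrays, and the change was -0.20 ± 0.16 (adjusted p = 0.775). AT2G26500 read 2.31, 2.13 and 2.35 on +Fe and 1.40, 1.65 and 2.19 on -Fe (change -0.52 ± 0.17, adjusted p = 0.399), and AT3G47070 read 2.84, 2.92 and 3.16 and then 1.46, 2.04 and 2.80 (change -0.87 ± 0.25, adjusted p = 0.283). Replicate 3 on -Fe lay within the +Fe range for AT2G26500 and just below it for AT3G47070. Without that 1 array, limma called AT2G26500 (-0.74, adjusted p = 0.0145), AT3G47070 (-1.23, adjusted p = 0.00361) and CaS (-0.75, adjusted p = 0.0248; -0.61 and 0.152 with it). AT1G09750, an aspartyl protease family gene, behaved alike, at -0.88 ± 0.31 (adjusted p = 0.455) with all arrays and -1.32 (adjusted p = 0.0129) without it. With replicate number within genotype as a block, AT1G09750 was called in mutant leaves (adjusted p = 0.0291), and none of the 4 thylakoid genes was. The single -Fe array was singled out after its values were seen, and its +Fe partner was kept. Without it 106 of all probe sets fell in mutant leaves, against 48 with it. With replicate 3 left out on both media, AT2G26500 and AT3G47070 were called and CaS was not.

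Of 48 photosynthesis genes in a list that also served as green tissue markers, 9 were measured under a single name. In mutant roots 6 of the 9 fell and 0 rose, with a median change of -0.61, against 4.24% and 0.00 for all probe sets. Besides PSBW and the left-out PSAN they were RCA (-0.60 ± 0.15), PSBY (-0.76 ± 0.11), PSAE1 (-0.89 ± 0.14) and ATPC1 (-0.61 ± 0.14). In mutant leaves 0 of 9 were called by limma, with a median of -0.20. At an unadjusted p under 0.05, 4 of the 9 were lower there, against 5.5% of all probe sets. The mean over the 8 probe sets that are no members lay at -2.26 to -2.15 in mutant roots on +Fe and at -2.94 to -2.75 on -Fe, so green tissue markers moved with the root result. In mutant leaves it lay at 2.38 to 2.51 on +Fe and at 1.98 to 2.35 on -Fe. The part of green tissue in the root samples was not tested.

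The other lists held 0 of the named members. The 39 unnamed members could not be matched to any list, so whether they hold such genes is not known. Measured here means a single gene name on a probe set. That held for 2 of 22 genes of iron storage and transport, 3 of 24 iron proteins and 2 of 11 for plastid iron-sulfur assembly. It also held for 9 of 27 tetrapyrrole and chlorophyll genes, 1 of 8 copper and superoxide proteins and 8 of 14 iron regulators. For sulfate assimilation and glucosinolates it was 1 of 14. Of 9 measured genes of tetrapyrrole and chlorophyll synthesis, 0 fell in mutant roots and 1 in mutant leaves, HEME1 (-0.73 ± 0.14, adjusted p = 0.0443 with limma). Of all probe sets, 4.24% and 0.27% fell there. At an unadjusted p under 0.05, 1 of the 9 was lower in roots, against 12.3% of all probe sets. In leaves 7 were lower by that measure, against 5.5% of all. The medians of the 9 were -0.01 in roots and -0.42 in leaves. Of 3 measured iron proteins, the left-out SAPX fell in leaves (-2.06 ± 0.21) and the thylakoid ascorbate peroxidase TAPX in roots (-0.43 ± 0.11). SIR, the sulfite reductase, changed by -0.26 ± 0.11 in roots (adjusted p = 0.164) and -0.73 ± 0.16 in leaves (adjusted p = 0.124). Of 2 measured genes of plastid iron-sulfur assembly, HCF101 fell in roots (-0.37 ± 0.10) and NFS2 passed in neither tissue. The 2 measured vacuolar iron transporter-like genes, VTL3 and VTL4, passed in neither tissue, also at an unadjusted p under 0.05. CCS, the copper chaperone of superoxide dismutase, rose in mutant roots (0.56 ± 0.09, adjusted p = 0.00237) and changed by 0.12 ± 0.16 in leaves. BCAT4, the 1 measured gene of sulfate assimilation and glucosinolates, changed by 0.10 ± 0.11 in roots and 0.03 ± 0.25 in leaves. Of 8 measured iron regulators, 3 rose in each mutant tissue, where 2.87% of all probe sets rose in roots and 0.157% in leaves, and 0 fell.

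AT2G37130, a class III peroxidase, read 1.71, 1.78 and 1.91 in mutant roots on +Fe and 0.59, 0.81 and 0.82 on -Fe, and fell 2.09-fold (log2 -1.06 ± 0.13, adjusted p = 0.000143 with limma). In mutant leaves it read -0.71, -0.92 and -0.59 on +Fe and -1.08, -1.53 and -0.68 on -Fe, which overlap, and the change was -0.36 ± 0.18 (adjusted p = 0.632). AT1G09750 fell in mutant roots (-0.49 ± 0.14, adjusted p = 0.0425). AT5G14650, of the pectin lyase-like superfamily, was not called in either mutant tissue (-0.35 ± 0.17 in roots and -0.41 ± 0.38 in leaves).

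BGLU45 and BGLU46, beta-glucosidases that act on glucosides of lignin precursors, are neighbouring genes on the reference assembly TAIR10.1. BGLU45 read -0.43, -0.18 and -0.03 in mutant roots on +Fe and -1.05, -0.76 and -0.66 on -Fe, without overlap, yet the change of -0.61 ± 0.20 was not called (adjusted p = 0.0759 with limma; 0.0187 with the 6 mutant root arrays alone and 0.0181 without Col +Fe replicate 2). BGLU46 changed by -0.33 ± 0.12 there (adjusted p = 0.116). In mutant leaves the changes were 0.06 ± 0.40 and -0.07 ± 0.31. The Col leaf values of BGLU46 were -2.42, -2.44 and -1.53 on +Fe, and those of mutant leaves were -0.93, -0.77 and -1.57. Replicate 3 of either genotype thus lay at about the same level, and replicates 1 and 2 were apart.

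GH9B13, an endoglucanase family gene, and COR27, a cold-regulated gene tied to the clock, were called in neither mutant tissue. GH9B13 read 0.54, 0.82 and 0.88 in mutant roots on +Fe and 0.53, 0.56 and 0.70 on -Fe, while Col roots read 2.08, 2.00 and 2.16 and then 1.34, 1.63 and 1.49. The mutant values on both media therefore lay below the lowest Col value. COR27 read -1.55 to -1.43 in mutant roots on +Fe and -1.62, -1.31 and -1.34 on -Fe, and its Col values were -0.41, -0.54 and -0.50 and then -1.14, -0.95 and -1.04. The mutant was below Col on both media there too. Their root changes in the mutant were -0.15 ± 0.11 (adjusted p = 0.419) and 0.07 ± 0.10 (adjusted p = 0.722). Because the Col arrays chose the members, genotype differences are not tested.

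The remaining named members fell in mutant roots and were not called in leaves. They were AT3G19800 (-0.63 ± 0.16 in roots and -0.38 ± 0.14 in leaves), AT1G12845 (-0.58 ± 0.15 and -0.07 ± 0.33), AT2G38370 (-0.47 ± 0.10 and -0.22 ± 0.17) and AT3G08890 (-0.42 ± 0.12 and -0.62 ± 0.13). AT2G38370 belongs to a family named for weak chloroplast movement under blue light. In all, 17 of the 22 named members fell in mutant roots (77.3%, against 4.24% of all probe sets). In mutant leaves 6 did (27.3%, against 0.27%).

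Several root calls close to the threshold were lost when 1 array was left out, in most genes any of several arrays, with changes of -0.64 to -0.31 in the fits that lost them. Those of AT5G57345, AT3G61870 and AT3G19800 were lost without mutant replicate 1 or 2 on either medium (adjusted p = 0.0547 to 0.129), and that of AT2G38370 without mutant +Fe replicate 1 or -Fe replicate 3 (0.0602 and 0.0645). The call of CaS was lost without mutant +Fe replicate 2 or -Fe replicate 1 or 2 (0.0725 to 0.11), and that of AT1G12845 without mutant +Fe replicate 1 or 2 or any mutant -Fe replicate (0.0894 to 0.16). AT3G08890 lost its call without replicate 1 of Col on either medium, mutant +Fe replicate 2 or any mutant -Fe replicate (0.0506 to 0.178). AT1G09750 lost its call without any 1 of the 6 mutant arrays or replicate 2 of Col on either medium (0.0515 to 0.147). In leaves, AT5G57345 lost its call without mutant replicate 1 or 2 on either medium (0.0606 to 0.091). After quantile normalization the root calls of AT3G61870, AT5G57345, AT3G19800, AT1G09750, CaS and AT1G12845 were lost as well (adjusted p = 0.0531 to 0.19), with changes of -0.55 to -0.32. With the 6 mutant root arrays alone AT1G12845 lost its root call (0.0521). With array weights, AT2G37130, AT3G47070, AT3G19800, AT1G09750, CaS, AT2G26500, AT1G54500 and AT3G08890 were called in mutant leaves, all lower (adjusted p = 0.00183 to 0.0332), but so were more of all probe sets, 4.62%, than the 0.27% without weights.

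Unnamed members gave the largest falls in mutant leaves. Probe set 251109_at read 1.20, 1.23 and 1.54 on +Fe and -2.43, -2.80 and -2.57 on -Fe, a fall of 15.2-fold (log2 -3.92 ± 0.22, adjusted p = 9.24e-07 with limma). In mutant roots it fell 2.56-fold (log2 -1.36 ± 0.10). Probe set 254098_at fell 10.1-fold in mutant leaves (log2 -3.34 ± 0.36), from 1.86, 1.59 and 1.33 to -1.83, -2.52 and -0.88, and 1.87-fold in roots. Here replicate 3 on -Fe was again the highest of its group. Probe set 263831_at fell 7.67-fold in leaves and 2.15-fold in roots, 256020_at 4.79-fold and 1.47-fold, and 255305_at 4.06-fold and 1.62-fold. The root call of 256020_at (adjusted p = 0.0106) was lost without mutant -Fe replicate 2 (0.0547). The largest root fall of all members was that of 249037_at, at 2.73-fold (log2 -1.45 ± 0.10, adjusted p = 4.64e-07), whereas its leaf change was -0.33 ± 0.21 (adjusted p = 0.716). In all, 27 of the 39 unnamed members fell in mutant roots (69.2%), 13 in mutant leaves (33.3%) and 10 in both (25.6%). The shares of all probe sets were 4.24%, 0.27% and 0.146%.

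**Figure D3:**
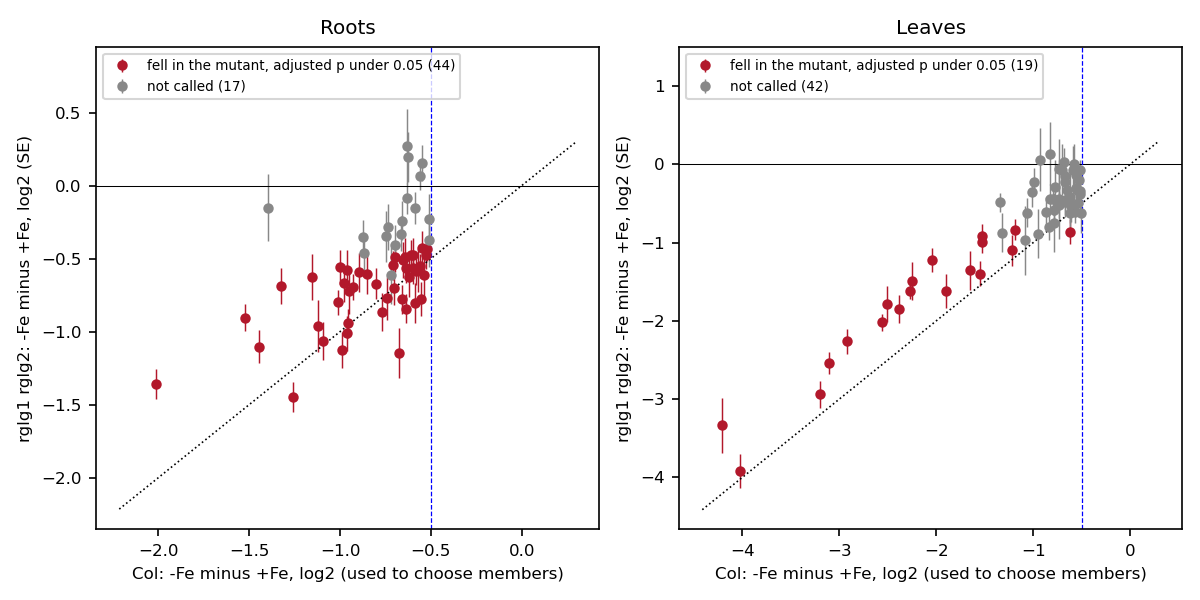
Change from +Fe to -Fe (log2) in the mutant (vertical axis, with SE) against that in Col (horizontal axis) for the 61 members, in roots and in leaves. Red points fell in the mutant at an adjusted p under 0.05 (44 in roots, 19 in leaves), the dotted line marks equal changes, and the dashed blue line is the threshold of -0.5 used in Col. Most points lie above the dotted line, 57 of 61 in leaves and 47 in roots, and the Col changes span a wider range in leaves.

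Across the 61 members, the mutant change correlated with the Col change in leaves (Pearson's r = 0.95, Spearman's rho 0.73). In roots the correlation was lower (r = 0.54, rho 0.53). The Col changes spanned a wider range in leaves, -4.21 to -0.50, than in roots, -2.02 to -0.51, and r depends on that range. The members' median went from -0.80 in Col to -0.53 in the mutant in leaves, and from -0.70 to -0.58 in roots. These are descriptions over probe sets of shared arrays, with no test. Of 16 members at -1.5 or less in Col leaves, all 16 fell in mutant leaves, by -3.92 to -0.91, with 10 of them at -1.5 or less there too, and of the 45 others 3 fell. The value of -1.5 was chosen after the values were seen. In roots 13 of those 16 and 31 of those 45 fell. Of all probe sets, 0.27% fell in mutant leaves and 4.24% in mutant roots. The change was smaller in size in the mutant than in Col for 47 members in roots and 57 in leaves. Since members were chosen for large changes in Col, a smaller value in other arrays is what the choice favours, and the difference was not tested.

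Not all members lost less than in Col. AT3G47070 changed by -1.14 in mutant roots and -0.68 in Col roots, and 249037_at by -1.45 and -1.26. At the other end stood 266965_at, at -1.40 in Col roots and -0.15 ± 0.23 in mutant roots (adjusted p = 0.736 with limma), with 0.03 ± 0.18 in mutant leaves. Its mean in mutant roots on +Fe was 0.87, already below the Col root means of 2.56 on +Fe and 1.16 on -Fe. The 4 members with a positive change in mutant roots reached at most 0.27, and the 3 that were not lower in mutant leaves at most 0.14. None of these was called.

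Whether the iron response of the members differed between tissues was tested within the mutant, as the leaf change minus the root change in 1 fit of all 24 arrays. The leaf change was the lower of the 2 in 32 of 61 members, against 9941 of all 17810 probe sets. The median difference was -0.03, against -0.04 over all probe sets. With limma, 12 members differed between tissues (19.7%), where 1.85% of all probe sets did. Of these, 10 had the lower change in leaves (16.4%, against 1.13% of all) and 2 in roots (against 128 of all 17810 probe sets). Without mutant root +Fe replicate 2 the count was 7 (11.5%, against 0.898% of all). With array weights it was 24, or 39.3% of the members, against 24.3% of all probe sets.

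Among named members AT2G36885 differed most, by -1.42 ± 0.19 (adjusted p = 8.69e-05 with limma). AT1G68650 differed by -0.90 ± 0.21 (adjusted p = 0.0275) and AT3G61870 by -0.74 ± 0.19 (adjusted p = 0.0467). The call of AT1G68650 was lost without any 1 mutant root array except +Fe replicate 3, or without mutant leaf +Fe replicate 1 or 2 or -Fe replicate 2 (adjusted p = 0.0583 to 0.0756), and after quantile normalization (0.0933). That of AT3G61870 was lost in 18 of the 24 fits without 1 array (0.0512 to 0.141), namely without any array other than Col root -Fe replicate 1, mutant root +Fe replicate 3, Col leaf +Fe replicates 1 and 2, mutant leaf +Fe replicate 1 and mutant leaf -Fe replicate 3. The 2 members with the lower change in roots were 249037_at (1.12 ± 0.24, adjusted p = 0.0151) and 253957_at (0.70 ± 0.17, adjusted p = 0.0395). The first lost its call without mutant root +Fe replicate 2 (1.01, adjusted p = 0.0649). With the 12 mutant arrays alone, the calls of AT3G61870 (adjusted p = 0.136), 254764_at (0.115), 249037_at (0.097) and 253957_at (0.161) were lost. With a replicate block shared by the genotypes, those of 254764_at (0.0572) and 253957_at (0.0541) were lost. The unnamed members at the other end were 251109_at (-2.56 ± 0.25) and 254098_at (-2.43 ± 0.39).

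**Figure D4:**
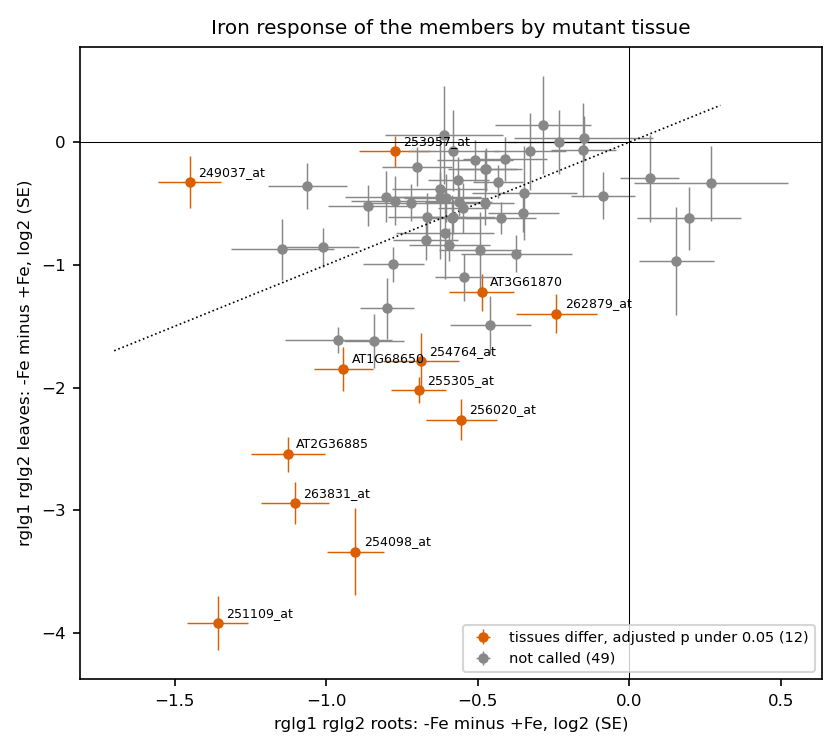
Change from +Fe to -Fe (log2, with SE) of the 61 members in mutant leaves (vertical axis) against mutant roots (horizontal axis), with the line of equal change dotted. Orange points are the 12 members whose tissues differed at an adjusted p under 0.05, of which 10 lie below the line; the grey cloud lies near the line, mostly between -1.2 and 0.3 in roots.

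Some members were higher in leaves and others in roots. On +Fe the 3 mutant leaf arrays lay above the 3 mutant root arrays in 37 members (60.7%), against 31.8% of all probe sets. They lay below them in 21 of the 61 members, against 37.3% of all probe sets. The median difference was 1.36, against -0.04 over all. AT3G47070 (leaf minus root 4.66), CaS (4.30), AT3G19800 (3.91), PSBW (3.84) and AT2G26500 (3.84) were higher in leaves. AT5G14650 (-5.59), GH9B13 (-3.52) and AT2G37130 (-2.54) were higher in roots. AT2G36885 and AT1G68650, which fell in both tissues, were among those higher in roots, by 0.56 and 0.71.

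Probe sets that reached the Col threshold in 1 tissue only served as comparison. The 373 that did so in roots alone had a median change of -0.45 in mutant roots and -0.08 in mutant leaves, and 46.9% and 0.268% of them fell there. The 343 that did so in leaves alone had medians of -0.16 and -0.37, and 10.5% and 4.96% fell. Of the members, 72.1% and 31.1% fell in these tissues. The shares of members and of these sets differ also in the size of their Col changes, with a median of -0.80 in Col leaves for members and -0.64 for the leaf-only set, and the difference between the sets was not tested.

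**Figure D5:**
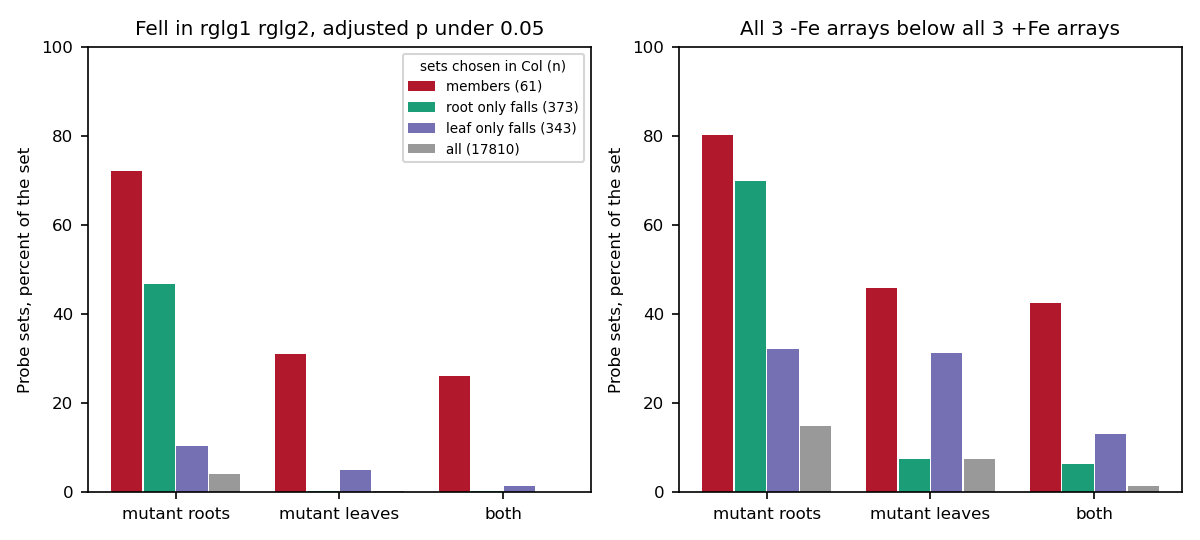
Percent of probe sets in each set that fell in the mutant with limma (left) and whose 3 -Fe arrays all lay below the 3 +Fe arrays (right), in mutant roots, mutant leaves and both. Bars are the 61 members, the 373 and 343 probe sets that reached the Col threshold in roots alone or leaves alone, and all 17810; members reach 72.1%, 31.1% and 26.2% on the left.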

How the data were processed

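Per the submitters' processing notes the authors used RMA (version not given); the deposited table holds log2 values with a median of 0 over the 24 arrays for every probe set (within 5e-07). The array median ranged from -0.136 to 0.049. The lowest was that of mutant leaf -Fe replicate 3, and the next lowest was -0.056. With array medians set to 0, 18 members fell in mutant leaves, against 0.253% of all probe sets. How and when the centring was done is not given in the sources used here. Of 17854 probe sets, 44 controls were left out. Names came from the platform annotation through gene IDs and the reference table of TAIR10.1: 9869 probe sets had 1 gene, 353 several and 7588 none; all 22 named members matched. Unnamed members may include plastid-encoded genes. limma 3.58.1 (R 4.3.3) fitted 1 mean per group on the 12 arrays of a tissue (8 residual degrees of freedom) or all 24 (16); the code was tested on simulated data. For arrays, their number limits the precision.

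Members and gene lists were chosen with earlier results of these data known. The text names members with 1 gene by rule: list genes, the 10 largest Col falls, the 10 smallest adjusted p among falls without overlap in each mutant tissue, the 5 highest changes in each, and interaction calls; CaS and AT1G09750 were added after their values were seen. Equally numbered +Fe and -Fe arrays deviated together in mutant leaves (r = 0.39, 0.44 and 0.60), but not in mutant roots (0.00, 0.05 and 0.00). In mutant leaves, replicate 1 of 1 medium and replicate 2 of the other also did (0.23 and 0.35). The reported fits are unpaired in both tissues, and replicate blocks were used as alternatives alone. Alternatives were the arrays in the fit, array weights, quantile or median normalization, robust moderation, replicate blocks, a filter on flat probe sets, a minimum size and arrays left out. Filters on signal level could not be set on centred values. No sequences of the members were used here.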

Additional observations from a re-analysis of the deposited data

Results flagged for a closer look

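The iron response of 12 members differed between leaves and roots of the mutant by limma's test of the difference. The leaf change was the more negative, in log2, for 251109_at (-2.56), 254098_at (-2.43), 263831_at (-1.84), 256020_at (-1.71), AT2G36885 (-1.42), 255305_at (-1.33), 262879_at (-1.16), 254764_at (-1.09), AT1G68650 (-0.90) and AT3G61870 (-0.74). The root change was the more negative for 249037_at (1.12) and 253957_at (0.70). When 1 of the 24 arrays was left out, 254764_at lost its call in 15 of the fits and 253957_at in 10.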

How the results depend on the processing

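With 1 array left out, the number of members that fell ranged from 31 to 45 in mutant roots, 13 to 26 in mutant leaves and 12 to 22 in both, and the number that differed between tissues from 7 (without mutant root +Fe replicate 2) to 18 (without mutant leaf -Fe replicate 3). When the fit held no arrays but those compared, 10 members fell in mutant leaves and 9 in both tissues, while 18 of all probe sets fell in leaves; with array weights the members were 39 and 36, 24 differed between tissues, and 2586 of all probe sets fell in roots, 822 in leaves and 209 in both. Of all probe sets, 330 differed between mutant tissues, against 4333 with array weights, 145 with the mutant arrays alone, 715 with the block within genotype and 651 without mutant replicate 3 of both tissues; with 1 array left out they ranged from 160 to 1255, the falls in roots from 327 to 1663 and those in leaves from 27 to 106. Falls of all probe sets in both mutant tissues ranged from 16 to 41 with 1 array left out. The members' counts were within 1.5 times the reported ones under the other alternatives. Leaving out replicate 3 of the mutant leaves on both media was an alternative chosen after seeing the data. It gave 21 members in leaves and 19 in both, against 0.382% and 0.191% of all probe sets. It kept the leaf calls gained without the single -Fe array for AT3G47070, AT1G09750 and AT2G26500 (adjusted p = 0.011 to 0.0421), and the tissue differences of AT3G61870 (0.0516) and 253957_at (0.0671) lost their calls. Without mutant replicate 3 of both tissues that of AT1G68650 was lost too (0.0663), and with array medians set to 0 those of AT3G61870 (0.0711) and 254764_at (0.0692). With flat probe sets left out, BGLU45 in roots (0.0407) and AT3G08890 in leaves (0.0435) were called. With replicate number within genotype as a block, 44 members fell in roots, 21 in leaves and 19 in both. Of all probe sets, 4.99%, 0.382% and 0.18% did so. In that fit 15 members differed between tissues, against 4.01% of all. With a replicate block shared by the genotypes, 44, 19 and 16 members fell and 10 differed. Of all probe sets these shares were 4.4%, 0.23%, 0.135% and 2.1%. In mutant leaves the fit with the block within genotype changed no named call other than that of AT1G09750. Leaf changes that were not called turned sign: BGLU46 (0.01) and 253957_at (0.01) with array weights, and GH9B13 (0.11) without mutant replicate 3. With 1 array left out, leaf values ranged from -0.33 to 0.17 for BGLU46, -0.16 to 0.02 for 253957_at, -0.41 to 0.40 for GH9B13, -0.37 to 0.53 for BGLU45, -0.49 to 0.23 for AT1G12845 and -0.57 to 0.01 for COR27. The leaf calls of 250243_at, 251735_at and 259723_at were lost in 9, 8 and 11 of the 12 fits. The cause of these changes was not tested.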

Other observations

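Outside the members, 8 probe sets fell in both mutant tissues and were lower in Col by less than the threshold in at least 1 tissue. Of these, 2 had a single gene name. AT4G36050 changed by -0.49 ± 0.11 in mutant roots and -0.87 ± 0.12 in mutant leaves, and by -0.28 and -0.98 in Col roots and leaves. AT3G20510 changed by -0.52 ± 0.12 and -0.94 ± 0.14 in the mutant and by -0.25 and -1.35 in Col. The unnamed probe set 250073_at changed by -2.71 ± 0.30 in mutant leaves and -3.84 in Col leaves, and by -0.41 ± 0.11 and -0.06 in roots.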
